A study of Mus musculus with 10 samples.

Results

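Cadherins and protocadherins are the calcium-dependent cell-adhesion proteins of the cadherin superfamily, and their mRNA levels were read across immortalised fibroblasts of mouse embryos (MEFs) that differ in Slfn2 and in interferon treatment. The members were chosen by name: rows whose symbol is Cdh or Pcdh followed by digits, or Pcdha, Pcdhb, Pcdhga, Pcdhgb or Pcdhgc followed by digits. That gave 92 of the 23337 genes in the files, and 37 of them reached 10 normalised reads in at least 2 libraries and are described below. A normalised read is a gene's read count divided by a scaling factor of its library, so it compares a gene between libraries and not a gene with another of a different length.

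There were 4 groups. KO-labelled cells (Slfn2 KO) given mouse interferon-β (IFN-β, a type I interferon) at 5000 IU/ml for 6 h had 2 libraries, and untreated KO-labelled cells had 2. WT-labelled cells (Slfn2 WT) given the same IFN-β dose and time had 3 libraries, and untreated WT-labelled cells had 3. Slfn2 is an interferon-inducible member of the Schlafen family. Per the labels all cells were immortalised, kept in DMEM with 10% serum, and plated as replicate wells of a WT and a KO culture. Nothing in the labels names independently derived lines or a rescue of Slfn2. Slfn2 status and any other difference between the cultures therefore cannot be told apart. Each p-value measures the spread between the libraries of a group. Of all genes, 48.6% differed between libraries with replicate number 2 and number 1 (adjusted p under 0.05, limma). The labels do not say what sets the libraries of a group apart. Nor do the labels say which part of Slfn2 was removed.

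The libraries held 13565815 to 16329729 reads over genes. Slfn2 had 75.0 and 171 normalised reads with IFN-β and 46.1 and 34.9 untreated in the KO-labelled libraries, against 527, 449 and 573 with IFN-β and 18.7, 17.4 and 15.5 untreated in the WT-labelled libraries. The KO-labelled libraries were thus below the WT-labelled ones with IFN-β and above them when untreated, and the second of these goes against the label. All 10 listed fibroblast markers passed the low-count filter, and none of the 10 epithelial markers did, with Krt5 and Cldn3 at 0 in every library. The summed fibroblast markers were at 302096 to 479154 normalised reads in KO-labelled libraries and 214391 to 314611 in WT-labelled ones, and 1 of the 10 changed by limma in either treatment, Dcn (decorin, a matrix proteoglycan), which fell. Among the neural markers, Sox2, a transcription factor of neural progenitors and stem cells, had 94.0, 129, 103 and 255 normalised reads in the KO-labelled libraries and 0 in all 6 WT-labelled ones, while Sox10 and Snap25 were at 0 throughout. Nes, an intermediate filament of neural progenitors and of other dividing cells, had 407 to 821 normalised reads in KO-labelled libraries and 1587 to 3644 in WT-labelled ones.

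Classical cadherins hold neighbouring cells together by binding the same cadherin on the next cell, and their cytoplasmic tails are tied to actin through catenins. Fibroblasts are known for Cdh2 (N-cadherin) and Cdh11 (OB-cadherin), while epithelia use Cdh1 (E-cadherin) and endothelium uses Cdh5 (VE-cadherin). Protocadherins have weaker adhesion and do not bind β-catenin. The non-clustered ones lie scattered over the genome, and the clustered ones lie in alpha, beta and gamma clusters in which each variable exon has its own promoter, and alpha and gamma exons are spliced to constant exons shared by the cluster. In neurons the clustered genes are known for giving each cell its own combination of surface proteins.

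Promoter sequences are shown for Pcdh7, Pcdh10 and Cdh10, the 3 genes with an entry in the RefSeq promoter table among those that differed between KO-labelled and WT-labelled cells in both treatments. They lie at Pcdh7 chr5:57717831-57718130, Pcdh10 chr3:45378148-45378447 and Cdh10 chr15:18820079-18820378 (GRCm38.p6, plus strand), from 250 bases before to 50 after the RefSeq start, written 5′ to 3′ with each CG dinucleotide in capitals.
Pcdh7: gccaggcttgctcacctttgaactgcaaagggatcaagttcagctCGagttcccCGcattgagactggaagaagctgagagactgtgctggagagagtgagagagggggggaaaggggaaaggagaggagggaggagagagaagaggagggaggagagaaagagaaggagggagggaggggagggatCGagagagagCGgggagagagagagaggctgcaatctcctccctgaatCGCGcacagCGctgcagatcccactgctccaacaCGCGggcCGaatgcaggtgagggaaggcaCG
Pcdh10: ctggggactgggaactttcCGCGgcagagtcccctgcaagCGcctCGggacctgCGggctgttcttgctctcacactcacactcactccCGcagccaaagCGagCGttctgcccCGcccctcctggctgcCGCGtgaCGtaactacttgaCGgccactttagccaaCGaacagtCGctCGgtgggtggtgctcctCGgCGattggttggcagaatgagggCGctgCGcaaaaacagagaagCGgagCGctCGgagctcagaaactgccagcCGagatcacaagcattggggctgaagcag
Cdh10: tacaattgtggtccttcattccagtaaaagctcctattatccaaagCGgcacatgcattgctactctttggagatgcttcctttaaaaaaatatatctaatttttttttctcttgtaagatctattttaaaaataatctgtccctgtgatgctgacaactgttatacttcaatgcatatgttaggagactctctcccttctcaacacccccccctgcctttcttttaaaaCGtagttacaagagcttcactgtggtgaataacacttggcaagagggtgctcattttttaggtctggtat
The Pcdh10 window holds 24 CG dinucleotides, the Pcdh7 window 11 and the Cdh10 window 2, where the median of all 32851 RefSeq windows is 7. Of those windows, 20.0% hold at least as many CG as Pcdh10, 41.4% at least as many as Pcdh7 and 85.9% at least as many as Cdh10. The Cdh10 window lies downstream of the gene start in the GENCODE M21 annotation (chr15:18818947), so its CG count holds for the RefSeq start only. The E-box CAGGTG, which Snail and Zeb proteins bind, was searched on both strands and occurs 1 time in the Pcdh7 window, not in the other 2, and in 20.2% of all windows.

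The reported genes were 11 of 23 cadherins, 7 of 12 non-clustered protocadherins, 12 of 22 beta genes and 7 of 22 gamma genes, and none of the 13 alpha genes. Those 13 alpha genes had 3 reads in all over the 10 libraries. Of the 55 members not described, 22 had no read in any library and 33 had some. The highest of these were Cdh5 and Pcdhgb2, each with 9.63 normalised reads in its second-highest library, and Pcdhgb7 with 9.11. Just inside the rule were Pcdh20 with 11.5, Cdh22 with 11.8 and Pcdhb15 with 12.8. Cdh1 had 12 reads in all and at most 2.90 normalised reads. Of the 37, Cdh18, Cdh22, Cdh23, Pcdh10 and Pcdhga7 reached 10 only in KO-labelled libraries, Pcdh7 only in WT-labelled ones, and 31 in both, so the first 6 met the rule through the genotype in which they are high.

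A few genes carried most of the signal. Pcdh19, Pcdhgc3, Cdh11, Pcdh18, Cdh2 and Pcdh17 together held 84.1% to 89.9% of the members' normalised reads in each library. Pcdh19, a delta protocadherin that binds N-cadherin and is linked to epilepsy in humans, had 3885 and 3067 normalised reads with IFN-β and 2382 and 2127 untreated in KO-labelled libraries, against 3695, 2649 and 2914 with IFN-β and 2342, 1202 and 1973 untreated in WT-labelled libraries. Its KO-labelled and WT-labelled levels overlapped in each treatment. Pcdh18, another delta protocadherin, had 1647 and 948 normalised reads with IFN-β and 1881 and 968 untreated in KO-labelled libraries, against 1329, 1434 and 1816 with IFN-β and 1371, 1079.6 and 1975 untreated in WT-labelled libraries, again with overlap. Cdh2 had 1811 and 1024 normalised reads with IFN-β and 2052 and 1099 untreated in KO-labelled libraries, against 1172, 1108 and 1348 with IFN-β and 1401, 734 and 1477 untreated in WT-labelled libraries, and its genotypes overlapped as well. In the WT-labelled groups Cdh11 was the cadherin with the most reads, and in the KO-labelled groups Cdh2 was.

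Per kilobase of exonic length (GENCODE M21, which is on GRCm38, the same assembly as mm10), the order of the genes differed between the groups. The group means of Pcdhgc3 were 327 normalised reads in KO-labelled cells with IFN-β, 333 in untreated KO-labelled cells, 453 in WT-labelled cells with IFN-β and 393 in untreated WT-labelled cells. On the same scale and in that order of groups, Pcdh19 was at 332, 215, 295 and 176, Pcdh18 at 242, 265, 284 and 275, and Cdh2 at 176, 195, 150 and 149. Cdh11 per kilobase was at 44.9 and 29.8 in KO-labelled cells with and without IFN-β, against 434 and 287 in WT-labelled cells with and without it. Pcdh19 was thus near Pcdhgc3 in KO-labelled cells with IFN-β, and below both Pcdh18 and Pcdhgc3 in both untreated groups. Pcdhgc3 is a C-type gamma isoform that is also used outside the nervous system, and it took 91.9% to 96.1% of the gamma reads in each library. It had 1294 and 2302 normalised reads with IFN-β and 1334 and 2332 untreated in KO-labelled libraries, against 1921, 2859 and 2695 with IFN-β and 1757, 2002 and 2727 untreated in WT-labelled libraries. Gamma genes share their constant exons, and 31.5% to 66.8% of a gamma gene's exonic bases lie in exons of another gene on the same strand. How reads in those shared exons were counted is not given in the sources used here, so levels of single gamma genes are uncertain, and a change of a gamma gene can reflect its neighbours.

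**Figure D1:**
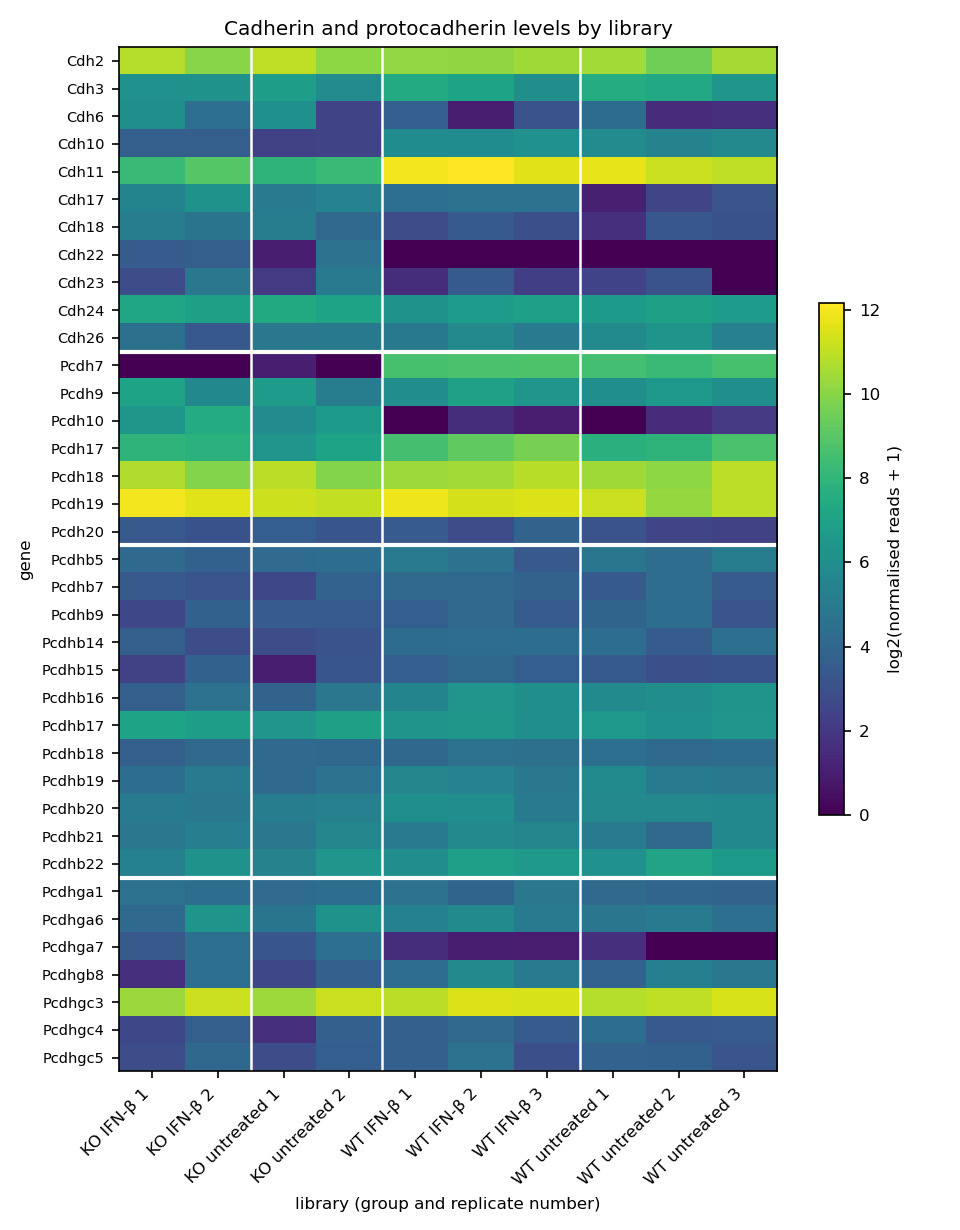
Heat map of log2(normalised reads + 1) for the 37 reported genes (rows, by class) in the 10 libraries (columns, KO-labelled groups left of WT-labelled ones). Pcdh7 and Cdh11 are darker and Pcdh10 lighter in the 4 KO-labelled libraries than in the 6 WT-labelled ones, and Pcdhgc3 is the bright row of the gamma cluster.

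Between KO-labelled and WT-labelled cells some members were higher and others lower. A gene counts as changed at an adjusted p under 0.05 (limma on the log2 scale, Benjamini-Hochberg over 12313 genes, two-sided). Untreated, 6 of 37 changed, which is 16.2% of the members against 6.23% of all genes tested, with 3 higher in KO-labelled cells (Pcdh10, Cdh17 and Pcdhga7, where 3.00% of all genes were higher) and 3 lower (Pcdh7, Cdh11 and Cdh10, where 3.23% were lower). With IFN-β, 5 of 37 changed, 13.5% against 6.55% of all genes, with 1 higher (Pcdh10, beside 2.92% of all genes) and 4 lower (Pcdh7, Cdh11, Cdh10 and Pcdhb16, beside 3.64%). Pcdh7, Cdh11, Cdh10 and Pcdh10 changed in both treatments. The comparisons share no library, but they share the WT and KO cultures and an estimate of the spread, so they are not independent. Pcdh7, Pcdh10 and Pcdhga7 are among the genes that met the 10-read rule through the genotype in which they are high, so these shares are a description. The median log2 fold change of the members was -0.27 untreated and -0.41 with IFN-β, beside 0.0034 and -0.00013 for all genes.

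Libraries that share a replicate number deviated together, and with the replicate number as a block more genes passed. Untreated, 12 of 37 then changed, 4 higher and 8 lower, which is 32.4% against 26.6% of all genes (13.5% higher and 13.1% lower). The added genes were Cdh18 higher, and Cdh3, Pcdh17, Pcdhb16, Pcdhb22 and Pcdhgb8 lower. With IFN-β, 15 of 37 changed with the block, 6 higher and 9 lower, which is 40.5% against 26.0% of all genes (12.7% higher and 13.3% lower). Added to the 5 above were Cdh6, Cdh17, Cdh18, Cdh22 and Pcdhga7 higher, and Cdh3, Cdh26, Pcdh17, Pcdhb22 and Pcdhgb8 lower. Among the genes called with the block, Pcdh7, Pcdh10, Pcdhga7 and Cdh18 met the 10-read rule through the genotype in which they are high. With IFN-β this holds for Cdh22 too, so these shares are also a description. Most of the added calls were lost without at least 1 library. In 10 refits with the block, each without 1 library, Pcdh17 and Pcdhb16 passed untreated in all 10, Cdh3 in 9 (lost without KO untreated library 2), Cdh18 in 5, Pcdhb22 in 4 and Pcdhgb8 in 2 (adjusted p up to 0.295, limma). With IFN-β, Pcdh17 passed in 9 (lost without KO IFN-β library 2), Cdh3, Cdh6 and Pcdhgb8 in 7, Cdh26 in 6 and Cdh17 in 5. There Cdh18, Cdh22 and Pcdhga7 passed in 4 and Pcdhb22 in 1 (adjusted p up to 0.323, limma). Each of these calls with IFN-β was lost without at least 1 of the 2 KO IFN-β libraries, and untreated those of Cdh18, Pcdhb22 and Pcdhgb8 were lost without KO untreated library 1, among others.

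**Figure D2:**
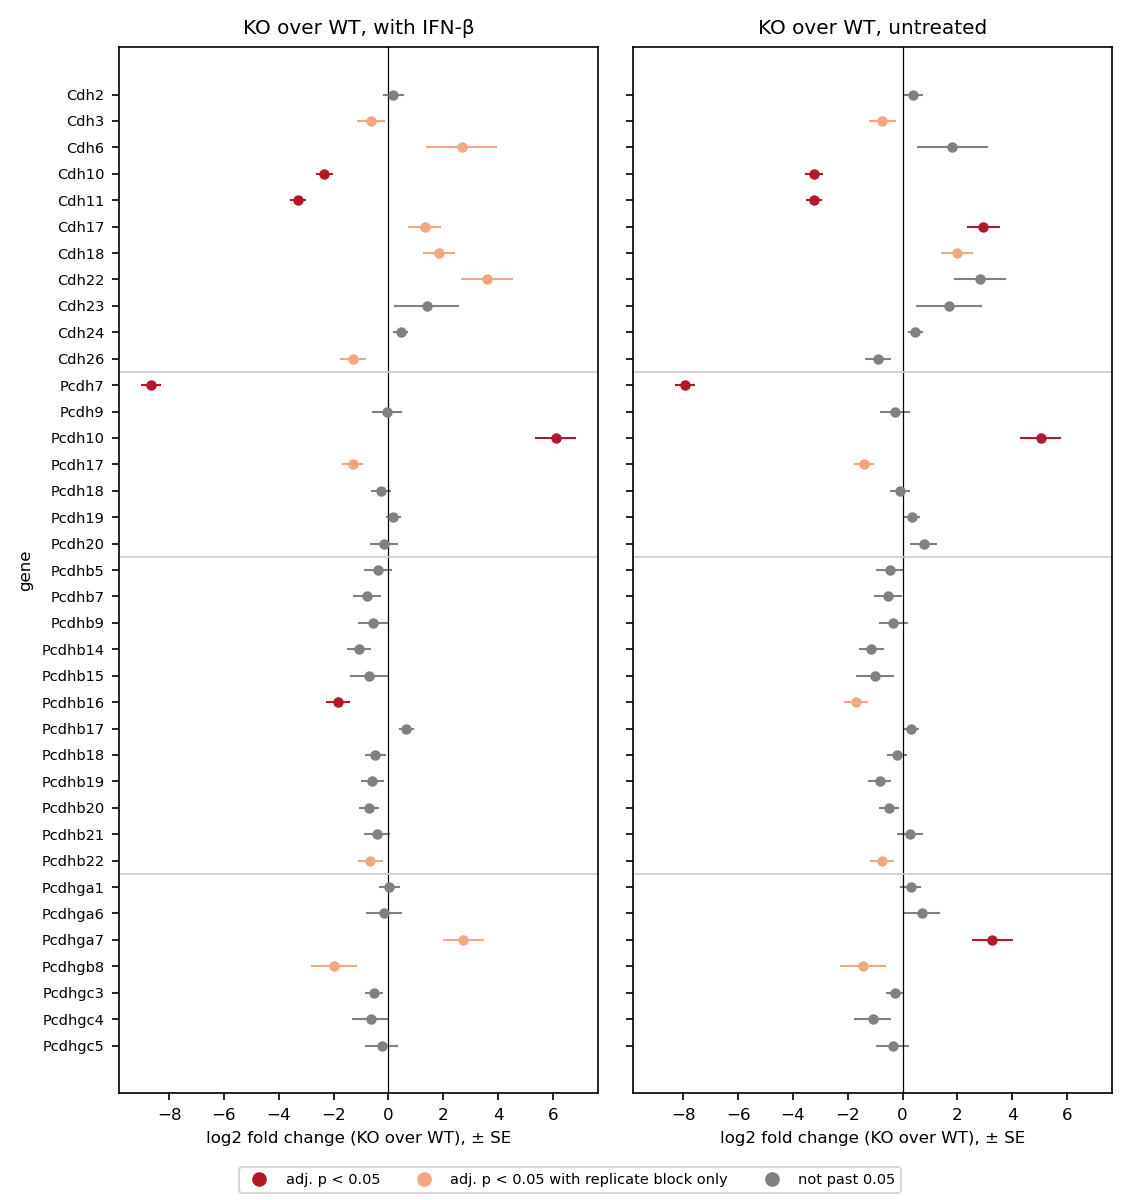
Log2 fold change (KO-labelled over WT-labelled, horizontal axis, ± SE from limma) of the 37 genes (vertical axis, by class) with IFN-β (left) and untreated (right). Dark red points passed the test, light ones passed it only with the replicate block, and Pcdh7 at -8.67 and -7.94 and Pcdh10 at 6.11 and 5.05 lie farthest from 0 on either side.

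Pcdh7, a delta protocadherin also called BH-protocadherin for its expression in brain and heart, was near absent from KO-labelled cells. It had 0 normalised reads with IFN-β and 1.05 and 0 untreated in KO-labelled libraries, against 388, 399.9 and 435 with IFN-β and 369, 294 and 396 untreated in WT-labelled libraries. The KO-labelled libraries held 1 read between them and every WT-labelled library held 294 or more normalised reads. In bulk libraries, fewer cells of a type and less RNA per cell cannot be told apart. With IFN-β it was at least 138-fold lower in KO-labelled cells, against a floor of 3 reads per library (adjusted p = 5.25e-06, limma). Untreated, 1 read stood against 1024 reads (adjusted p = 1.10e-05, limma). With the reads of each group pooled and scaled by the library factors, it was 709-fold lower, with a 95% counting interval of 127 to 28014. Pcdh7 spans chr5:57717967-58133230 on the plus strand, and 21.1% of its exonic bases are overlapped by exons on the opposite strand. The kit keeps strand but the strand setting of the counting is not given in the sources used here, so antisense reads cannot be told apart.

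Cdh11, the mesenchymal cadherin of fibroblasts and osteoblasts, fell in KO-labelled cells in both treatments. It had 301 and 499 normalised reads with IFN-β and 240.1 and 291 untreated in KO-labelled libraries, against 3927, 4557 and 3109 with IFN-β and 3373, 2296 and 2009.9 untreated in WT-labelled libraries. No KO-labelled library came near the lowest WT-labelled one. The log2 fold change was -3.30 ± 0.29 (SE) with IFN-β, with adjusted p = 0.000276 (limma), and -3.23 ± 0.29 untreated, with adjusted p = 0.000352 (limma), and the means were 9.66-fold and 9.64-fold lower. Cdh11 lies at chr8:102632095-102785642 on the minus strand. Dcn, on the fibroblast marker list, was low in the same libraries, at 83.4 and 107 normalised reads with IFN-β and 81.8 and 77.3 untreated in KO-labelled libraries, against 2105, 2355 and 2012 with IFN-β and 1702, 2005 and 1567 untreated in WT-labelled libraries. Its log2 fold change was -4.50 ± 0.18 with IFN-β (adjusted p = 5.25e-06, limma) and -4.44 ± 0.18 untreated (adjusted p = 7.03e-06, limma). Its part in the result was not tested.

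Cdh10, a type II cadherin best known from brain, also fell. It had 11.6 and 11.8 normalised reads with IFN-β and 4.19 and 4.71 untreated in KO-labelled libraries, against 59.7, 60.0 and 70.3 with IFN-β and 57.1, 42.6 and 51.6 untreated in WT-labelled libraries. The groups did not overlap, and within KO-labelled cells the untreated libraries were the lower. The log2 fold change was -2.33 ± 0.32 with IFN-β, with adjusted p = 0.00321 (limma), and -3.23 ± 0.32 untreated, with adjusted p = 0.000599 (limma). Cdh10 lies at chr15:18818947-19014236 on the plus strand. Cdh6 and Cdh18, type II cadherins on the same chromosome, stood the other way. Cdh18, another brain cadherin, had 34.9 and 24.6 normalised reads with IFN-β and 34.6 and 17.0 untreated in KO-labelled libraries, against 6.18, 10.0 and 6.74 with IFN-β and 2.20, 8.71 and 7.23 untreated in WT-labelled libraries. Its KO-labelled libraries lay above every WT-labelled one, with a log2 fold change of 1.84 ± 0.59 with IFN-β (adjusted p = 0.108, with the block 0.0480, limma) and 1.99 ± 0.59 untreated (adjusted p = 0.0835, with the block 0.0357, limma). Cdh6 (K-cadherin, of kidney) had 65.5 and 21.0 normalised reads with IFN-β and 68.1 and 4.71 untreated in KO-labelled libraries, against 11.3, 1.00 and 7.70 with IFN-β and 18.7, 1.94 and 2.06 untreated in WT-labelled libraries. Cdh6 was highest in the library numbered 1 of each group. With IFN-β it was higher in both KO-labelled libraries than in any WT-labelled one, and untreated the genotypes overlapped. Its log2 fold change was 2.67 ± 1.29 with IFN-β (adjusted p = 0.281, with the block 0.0192, limma) and 1.82 ± 1.29 untreated (adjusted p = 0.484, with the block 0.0752, limma).

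Pcdh10 (OL-protocadherin), a delta protocadherin of brain that interacts with the actin-regulating WAVE complex, was seen almost only in KO-labelled cells. It had 85.5 and 179 normalised reads with IFN-β and 57.7 and 97.0 untreated in KO-labelled libraries, against 0, 2.00 and 0.963 with IFN-β and 0, 1.94 and 3.10 untreated in WT-labelled libraries. The WT-labelled libraries had at most 3.10 normalised reads and the KO-labelled ones at least 57.7. With IFN-β, 277 reads stood against 3. On pooled reads scaled by the library factors that is 136-fold higher, with a 95% counting interval of 46.0 to 663. The log2 fold change with IFN-β was 6.11 ± 0.74 (adjusted p = 0.00188, limma). Untreated, the log2 fold change was 5.05 ± 0.74 (adjusted p = 0.00471, limma), and the means were 46.1-fold higher. Pcdh10 lies at chr3:45378398-45435623 on the plus strand. Sox2 was likewise read only in KO-labelled libraries, and its part in the result was not tested.

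Cdh17 (LI-cadherin), an intestinal cadherin with a short tail that does not bind catenins, was higher in untreated KO-labelled cells. It had 43.3 and 75.6 normalised reads with IFN-β and 31.5 and 41.5 untreated in KO-labelled libraries, against 20.6, 22.0 and 24.1 with IFN-β and 1.10, 4.84 and 8.26 untreated in WT-labelled libraries. The KO-labelled libraries were above the WT-labelled ones in each treatment, and the untreated WT-labelled ones were the lowest. The log2 fold change was 2.94 ± 0.60 untreated (adjusted p = 0.0222, limma), which did not pass without KO untreated library 1 or without KO untreated library 2 (up to 0.135). With IFN-β it was 1.33 ± 0.60 (adjusted p = 0.250, with the block 0.0321, limma). Cdh17 lies at chr4:11758147-11817895 on the plus strand.

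Of the other low cadherins, Cdh22 was read only in KO-labelled cells, and Cdh23 had higher means there with overlapping libraries. Cdh22 (PB-cadherin, of pituitary and brain) had 10.6 and 11.8 normalised reads with IFN-β and 1.05 and 23.6 untreated in KO-labelled libraries, against 0 with IFN-β and 0 untreated in WT-labelled libraries. With all WT-labelled libraries at 0, it was at least 3.74-fold higher with IFN-β (adjusted p = 0.0597, with the block 0.0250, limma) and at least 3.97-fold higher untreated (adjusted p = 0.127, with the block 0.0575, limma), against a floor of 3 reads per library. The untreated bound rests on KO untreated library 2, since library 1 with 1.05 normalised reads is itself under that floor and gives no bound without it. Cdh23, part of the tip links of inner-ear hair cells, had 6.34 and 27.3 normalised reads with IFN-β and 3.15 and 32.0 untreated in KO-labelled libraries, against 2.06, 10.0 and 3.85 with IFN-β and 4.39, 7.75 and 0 untreated in WT-labelled libraries, with a log2 fold change of 1.40 ± 1.19 with IFN-β (adjusted p = 0.579, limma) and 1.70 ± 1.19 untreated (adjusted p = 0.483, limma). Only the KO-labelled libraries numbered 2 stood above the WT-labelled ones.

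Cdh3 (P-cadherin, of placenta and epithelial stem cells) had 70.8 and 73.8 normalised reads with IFN-β and 108 and 57.5 untreated in KO-labelled libraries, against 173, 130.0 and 62.6 with IFN-β and 184, 152 and 82.6 untreated in WT-labelled libraries, with overlapping ranges. Its log2 fold change was -0.63 ± 0.50 with IFN-β (adjusted p = 0.544, with the block 0.0166, limma) and -0.74 ± 0.50 untreated (adjusted p = 0.458, with the block 0.0108, limma). Within each number the KO-labelled library was the lower in both treatments. Cdh26, a cadherin of epithelia, had 21.1 and 9.11 normalised reads with IFN-β and 28.3 and 29.2 untreated in KO-labelled libraries, against 28.8, 51.0 and 29.8 with IFN-β and 53.8, 78.4 and 38.2 untreated in WT-labelled libraries. It stood at -1.28 ± 0.47 with IFN-β (adjusted p = 0.157, with the block 0.0375, limma) and -0.90 ± 0.47 untreated (adjusted p = 0.323, limma). Cdh24 had 143 and 118 normalised reads with IFN-β and 165 and 132 untreated in KO-labelled libraries, against 72.1, 104 and 114 with IFN-β and 97.7, 118 and 104 untreated in WT-labelled libraries, and its log2 fold changes were 0.45 ± 0.27 with IFN-β and 0.47 ± 0.27 untreated, neither past the threshold (adjusted p = 0.395 and 0.380, limma).

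Among the other non-clustered protocadherins, Pcdh17, a delta protocadherin of axons and synapses, had 238 and 218 normalised reads with IFN-β and 80.7 and 131 untreated in KO-labelled libraries, against 384, 578 and 801 with IFN-β and 212, 241 and 406 untreated in WT-labelled libraries. Its KO-labelled libraries were below the WT-labelled ones of the same treatment, with a log2 fold change of -1.30 ± 0.38 with IFN-β (adjusted p = 0.0825, with the block 0.00716, limma) and -1.41 ± 0.38 untreated (adjusted p = 0.0628, with the block 0.00476, limma). Pcdh9 had 34.9 to 130 normalised reads in KO-labelled libraries and 60.8 to 124 in WT-labelled ones. Pcdh20 had 7.29 to 11.5 in KO-labelled libraries and 4.13 to 13.5 in WT-labelled ones. For Pcdh9, Pcdh18, Pcdh19 and Pcdh20 no difference between genotypes passed the test in either treatment, with or without the block, and their log2 fold changes lay between -0.28 and 0.77.

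**Figure D3:**
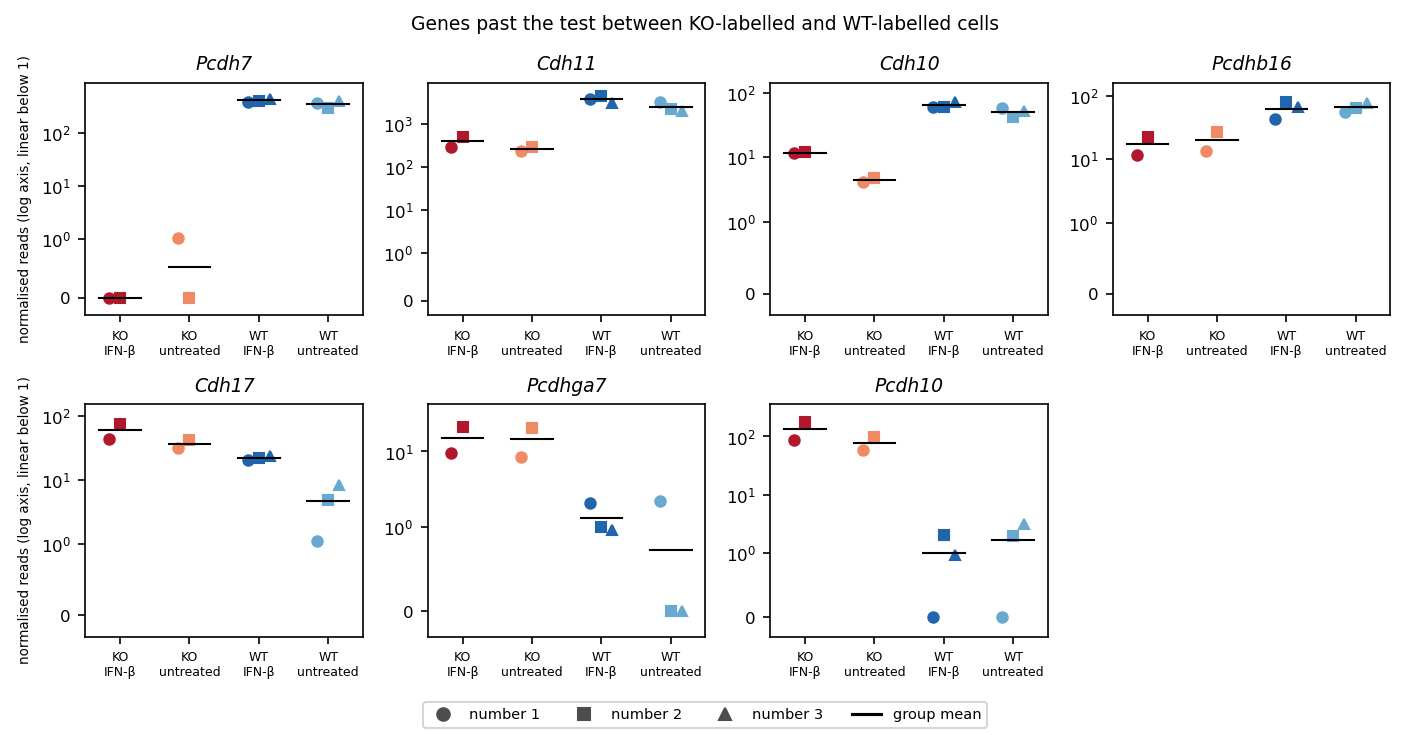
Normalised reads (vertical, log axis that is linear below 1) of the 7 genes past the test between KO-labelled and WT-labelled cells, by group, with a point for each library, its shape giving the replicate number, and a line at the group mean. Pcdh7, Cdh11, Cdh10 and Pcdhb16 lie lower in KO-labelled cells, and Cdh17, Pcdhga7 and Pcdh10 higher.

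In the beta cluster, 1 of 12 genes changed with IFN-β (Pcdhb16, lower) and 0 of 12 untreated by limma, beside 6.55% and 6.23% of all genes. With the block 2 of 12 changed in each treatment (Pcdhb16 and Pcdhb22, both lower), beside 26.0% and 26.6% of all genes. The log2 fold change was below 0 for 11 of 12 with IFN-β and for 10 of 12 untreated, with medians of -0.62 and -0.51. Beta genes have no constant exons, but they are close relatives in sequence, and Pcdhb21 and Pcdhb22 overlap on the same strand over 9.67% and 6.88% of their exonic bases, so how reads were split between them is uncertain. Pcdhb16 had 11.6 and 22.8 normalised reads with IFN-β and 13.6 and 27.3 untreated in KO-labelled libraries, against 43.3, 79.0 and 65.5 with IFN-β and 56.0, 62.9 and 77.4 untreated in WT-labelled libraries. Its KO-labelled and WT-labelled libraries did not overlap, and the log2 fold change was -1.83 ± 0.44 with IFN-β (adjusted p = 0.0429, limma) and -1.69 ± 0.44 untreated (adjusted p = 0.0572, with the block 0.00454, limma). Removing any library other than KO untreated 1 and 2 ended the call with IFN-β (8 libraries, adjusted p up to 0.227), which passed with the block without each of the 10 libraries. Pcdhb16 lies at chr18:37477814-37483038.

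Pcdhb22 had 40.1 and 75.6 normalised reads with IFN-β and 43.0 and 79.1 untreated in KO-labelled libraries, against 62.8, 114 and 92.4 with IFN-β and 70.3, 137 and 97.0 untreated in WT-labelled libraries, with a log2 fold change of -0.65 ± 0.44 with IFN-β (adjusted p = 0.465, with the block 0.0365, limma) and -0.74 ± 0.44 untreated (adjusted p = 0.400, with the block 0.0230, limma). Pcdhb17 was the beta gene above 0 in both treatments. It had 131 and 109 normalised reads with IFN-β and 79.7 and 119.7 untreated in KO-labelled libraries, against 78.3, 85.0 and 65.5 with IFN-β and 87.8, 66.8 and 80.5 untreated in WT-labelled libraries, at 0.65 ± 0.28 with IFN-β (adjusted p = 0.223, limma) and 0.32 ± 0.28 untreated (adjusted p = 0.585, limma). The other 9, Pcdhb5, Pcdhb7, Pcdhb9, Pcdhb14, Pcdhb15, Pcdhb18, Pcdhb19, Pcdhb20 and Pcdhb21, had between 1.05 normalised reads (Pcdhb15 in KO untreated library 1) and 65.9 (Pcdhb20 in WT IFN-β library 1), and none passed in either treatment.

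In the gamma cluster, Pcdhga7 had 9.50 and 21.0 normalised reads with IFN-β and 8.39 and 20.7 untreated in KO-labelled libraries, against 2.06, 1.00 and 0.963 with IFN-β and 2.20, 0 and 0 untreated in WT-labelled libraries. The WT-labelled libraries had at most 2.20 normalised reads and the KO-labelled ones at least 8.39. Untreated, 30 reads stood against 2. On pooled reads scaled by the library factors that is 21.7-fold higher, with a 95% counting interval of 5.50 to 187. The untreated log2 fold change was 3.28 ± 0.74 (adjusted p = 0.0343, limma). That call was lost without any of 7 libraries, KO untreated 1 and 2, WT IFN-β 1, 2 and 3, and WT untreated 2 and 3 (adjusted p up to 0.208). With IFN-β the log2 fold change was 2.73 ± 0.74 (adjusted p = 0.0652, with the block 0.0406, limma). Pcdhgb8, a pseudogene in both annotations used here (polymorphic in GENCODE, transcribed in RefSeq), had 2.11 and 21.0 normalised reads with IFN-β and 5.24 and 12.2 untreated in KO-labelled libraries, against 19.6, 52.0 and 30.8 with IFN-β and 13.2, 36.8 and 27.9 untreated in WT-labelled libraries. Its log2 fold change was -1.98 ± 0.84 with IFN-β (adjusted p = 0.220, with the block 0.0144, limma) and -1.45 ± 0.84 untreated (adjusted p = 0.381, with the block 0.0459, limma).

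Pcdhgc3, Pcdhgc4, Pcdhgc5, Pcdhga1 and Pcdhga6 passed in neither treatment, with or without the block. Pcdhgc4 and Pcdhgc5 had 2.10 to 16.4 normalised reads in KO-labelled libraries and 6.74 to 22.0 in WT-labelled ones, and Pcdhga1 had 17.8 to 22.2 in KO-labelled libraries and 13.4 to 27.0 in WT-labelled ones. Pcdhga6 had 16.9 and 78.4 normalised reads with IFN-β and 25.2 and 71.6 untreated in KO-labelled libraries, against 39.1, 56.0 and 30.8 with IFN-β and 26.4, 31.0 and 20.6 untreated in WT-labelled libraries, so that in KO-labelled cells the libraries numbered 2 were high. The clusters were therefore read mostly through Pcdhgc3, whose log2 fold change was -0.51 ± 0.33 with IFN-β (adjusted p = 0.445, limma) and -0.27 ± 0.33 untreated (adjusted p = 0.723, limma). Exons on the opposite strand overlap 28.4% of the exonic bases of Pcdhgc3, so antisense reads cannot be told apart there either.

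At 6 h of IFN-β no member passed the test in either genotype without the block. In WT-labelled cells 0 of 37 passed by limma, where 2.21% of all genes did, 4 members had an unadjusted p under 0.05, and edgeR called 0 and DESeq2 1 (Cdh17, adjusted p = 0.0124). In KO-labelled cells 0 of 37 passed by limma, where 1.84% of all genes did, 2 had an unadjusted p under 0.05, and edgeR and DESeq2 called 0. With the block, 3 of 37 rose in WT-labelled cells (Cdh17, Pcdh17 and Pcdh19), beside 4.95% of all genes in either direction and 4.68% that rose, and 1 of 37 rose in KO-labelled cells (Pcdh17), beside 3.48% in either direction and 3.37% that rose.

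Pcdh17 averaged 228 ± 14.0 normalised reads with IFN-β and 106 ± 35.5 untreated in KO-labelled cells (SD, n = 2 each), and 588 ± 209 with IFN-β and 286 ± 104 untreated in WT-labelled cells (SD, n = 3 each). Every IFN-β library exceeded the untreated library of its own genotype and number. The log2 fold change was 1.14 ± 0.42 in KO-labelled cells (adjusted p = 0.623, with the block 0.0180, limma) and 1.03 ± 0.34 in WT-labelled cells (adjusted p = 0.354, with the block 0.00812, limma). Pcdh19 was at 0.62 ± 0.30 in KO-labelled cells (adjusted p = 1.00, with the block 0.167, limma) and 0.79 ± 0.25 in WT-labelled cells (adjusted p = 0.282, with the block 0.0187, limma). Cdh17 was at 0.65 ± 0.66 in KO-labelled cells (adjusted p = 1.00, limma) and 2.26 ± 0.54 in WT-labelled cells (adjusted p = 0.0868, with the block 0.00949, limma), where its mean was 22.2 normalised reads with IFN-β and 4.73 untreated. Without WT untreated library 3, Cdh17 passed without the block in WT-labelled cells (adjusted p = 0.0445, limma). With the block, the calls in WT-labelled cells passed in 8 of 10 refits without 1 library for Cdh17 and in 6 each for Pcdh17 and Pcdh19 (adjusted p up to 0.124, limma). The Pcdh17 call in KO-labelled cells passed in 8, and was lost without KO IFN-β library 1 or KO untreated library 1 (adjusted p up to 0.171, limma).

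**Figure D4:**
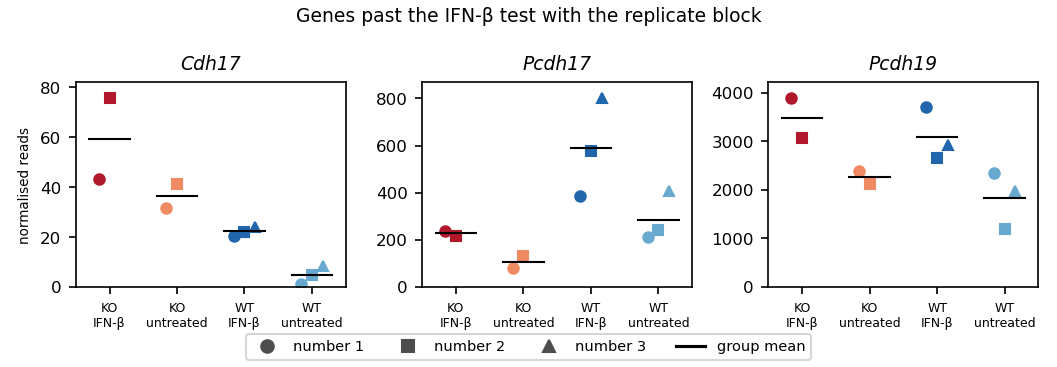
Normalised reads (linear axis from 0) of Cdh17, Pcdh17 and Pcdh19 by group, with a point for each library, its shape giving the replicate number, and a line at the group mean. IFN-β libraries lie above the untreated ones of the same genotype and number in all 3 genes.

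Whether the response to IFN-β differs between genotypes was tested as an interaction. None of the 37 members passed, as for all 12313 genes (0 called), and no member had an unadjusted p under 0.05 by limma, while edgeR and DESeq2 called 0. The lowest unadjusted p among the members belonged to Cdh10, with a difference of responses of 0.90 ± 0.45, and to Cdh17, with -1.61 ± 0.85 (adjusted p = 1.00 each, limma), where Cdh10 was at 1.23 ± 0.35 in KO-labelled cells (adjusted p = 0.249, limma) and 0.33 ± 0.28 in WT-labelled cells.

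Libraries with the same replicate number moved together. Deviations from the group means over all tested genes correlated at 0.480 to 0.871 in the 13 pairs of libraries of the same number, and at most at 0.318 in the 24 pairs of different numbers. The deviations of a group sum to 0, so those of the 2 libraries in a KO-labelled group mirror each other. Values therefore repeat, in part with the sign reversed, and the pairs are not independent. The labels leave the meaning of a number unstated. Libraries numbered 2 were therefore compared with libraries numbered 1 over the 4 groups, a comparison chosen after the values were seen. Of the 37 members 11 differed, 29.7% against 48.6% of all genes (25.3% higher and 23.3% lower), with 7 higher in number 2 (Cdh23, Pcdh10, Pcdhb16, Pcdhb22, Pcdhga6, Pcdhgb8 and Pcdhgc3) and 4 lower (Cdh2, Cdh6, Pcdh18 and Pcdh19). Leaving out any of the 4 KO-labelled libraries reduced the count to 7.

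Cdh2 was lower in number 2 in all 4 groups, at -0.68 ± 0.14 on the log2 scale (adjusted p = 0.00550, limma), and so was Cdh6, at -2.64 ± 0.47 (adjusted p = 0.00249, limma). Pcdh19 was lower by the same pattern in all 4 groups at -0.49 ± 0.13 (adjusted p = 0.0149, limma), and Pcdh18 in 3 of 4 groups at -0.50 ± 0.16 (adjusted p = 0.0348, limma). The clustered genes that differed were all higher in number 2, in 4 of 4 groups each. Pcdhb22 was at 0.89 ± 0.14 (adjusted p = 0.00129, limma), Pcdhgc3 at 0.60 ± 0.12 (adjusted p = 0.00414, limma) and Pcdhgb8 at 1.67 ± 0.32 (adjusted p = 0.00374, limma). Pcdhga6 was at 1.09 ± 0.32 and Pcdhb16 at 0.72 ± 0.20 (adjusted p = 0.0215 and 0.0187, limma). Outside the clusters Pcdh10 was at 1.23 ± 0.34 and Cdh23 at 1.87 ± 0.55 (adjusted p = 0.0164 and 0.0222, limma). Cdh23, Pcdh10, Pcdh18, Pcdhb16 and Pcdhga6 lost the call without at least 1 of the libraries (adjusted p up to 0.141). Pcdh7, Cdh11 and Cdh10 did not differ past the threshold between numbers (adjusted p = 0.254, 0.450 and 0.819, limma).

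**Figure D5:**
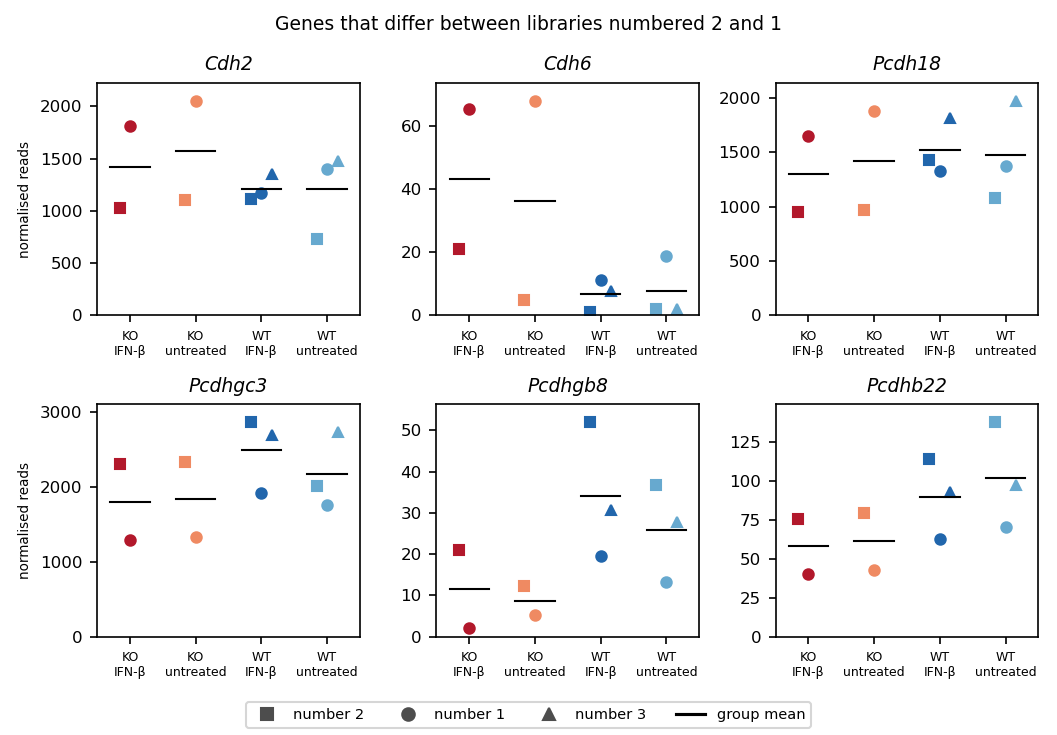
Normalised reads (linear axis from 0) of 6 genes by group, with the library numbered 2 left of number 1 and, in WT-labelled groups, number 3, and a line at the group mean. Cdh2 and Cdh6 are lower in number 2 in all 4 groups, Pcdh18 in 3, and Pcdhgc3, Pcdhgb8 and Pcdhb22 are higher in number 2 in all 4.

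The genes around the cadherins were followed in lists of related function. Of 12 tested catenins and junction partners, 1 was lower in KO-labelled cells with IFN-β (Ctnna1, α-catenin, which ties β-catenin to actin) and 0 of 12 changed untreated by limma, beside 3.64% and 3.23% of all genes lower. With the block 4 were lower with IFN-β and 3 untreated, beside 13.3% and 13.1% of all genes. Ctnna1 averaged 4603 normalised reads in KO-labelled cells and 6505 in WT-labelled cells with IFN-β, at -0.50 ± 0.13 (adjusted p = 0.0495, limma), a call that ended when any of 9 libraries was removed, WT untreated 2 being the exception. Ctnnb1 (β-catenin) had a log2 fold change of -0.20 ± 0.15 with IFN-β and -0.16 ± 0.15 untreated (adjusted p = 0.504 and 0.605, limma). Ctnnd1 (p120-catenin, which keeps cadherins at the surface) was at -0.55 ± 0.22 with IFN-β (adjusted p = 0.190, with the block 0.0401, limma, which passed in 2 of 10 refits without 1 library) and -0.31 ± 0.22 untreated (adjusted p = 0.489, limma). Jup (plakoglobin) was at -0.53 ± 0.56 with IFN-β and -0.76 ± 0.56 untreated (adjusted p = 0.669 and 0.502, limma). For IFN-β against untreated, 0 of 12 passed in either genotype, with or without the block.

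Nectins are adhesion proteins that gather cadherins at forming junctions and bind afadin. The list of nectins and afadin had 5 tested genes, Pvrl1, Pvrl2, Pvrl3, Pvr and Mllt4. Of these, 2 were lower in KO-labelled cells with IFN-β and 1 untreated, beside 3.64% and 3.23% of all genes. Pvrl2 (nectin-2) had 190.1 and 82.9 normalised reads with IFN-β and 149 and 82.0 untreated in KO-labelled libraries, against 1308, 1379 and 884 with IFN-β and 883, 1472 and 718 untreated in WT-labelled libraries. The groups did not overlap, and the log2 fold change was -3.21 ± 0.44 with IFN-β (adjusted p = 0.00328, limma) and -3.13 ± 0.44 untreated (adjusted p = 0.00377, limma). Mllt4 (afadin) was at -1.46 ± 0.30 with IFN-β (adjusted p = 0.0223, limma, lost without KO IFN-β 2, WT IFN-β 2 or WT IFN-β 3) and -1.13 ± 0.30 untreated (adjusted p = 0.0602, with the block 0.00825, limma).

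Of 8 tested transcription factors known for repressing E-cadherin during the epithelial-mesenchymal transition, 1 was higher in KO-labelled cells in each treatment, Snai2 (Slug), beside 2.92% of all genes with IFN-β and 3.00% untreated. It had 2745 and 3688 normalised reads with IFN-β and 1685 and 2022 untreated in KO-labelled libraries, against 1545, 1543 and 1337 with IFN-β and 1087, 891 and 810.3 untreated in WT-labelled libraries, at 1.11 ± 0.19 with IFN-β (adjusted p = 0.00905, limma) and 1.00 ± 0.19 untreated (adjusted p = 0.0149, limma). These calls were lost without KO IFN-β library 2 in the IFN-β comparison, and without KO untreated library 2 or WT untreated library 3 in the untreated one. Twist1 had log2 fold changes of 0.17 ± 0.21 with IFN-β and -0.02 ± 0.21 untreated (adjusted p = 0.730 and 0.977, limma), Snai1 of -0.33 ± 0.27 and -0.38 ± 0.27 (adjusted p = 0.568 and 0.488, limma). Zeb1 was at 0.31 ± 0.19 with IFN-β and 0.42 ± 0.19 untreated (adjusted p = 0.421 and 0.254, limma, with the block 0.109 and 0.0491), and Zeb2 at -0.84 ± 0.36 and -0.97 ± 0.36 (adjusted p = 0.227 and 0.162, limma, with the block 0.0351 and 0.0198). With IFN-β the limma test passed 0 of 8 in either genotype, and with the block Twist1 and Snai2 rose in both and Tcf4 in WT-labelled cells, beside 3.37% of all genes in KO-labelled cells and 4.68% in WT-labelled cells. Twist1 was at 1.04 ± 0.23 in KO-labelled cells (adjusted p = 0.0696, with the block 0.00955, limma) and 0.86 ± 0.19 in WT-labelled cells (adjusted p = 0.0559, with the block 0.00710, limma). Snai2 was at 0.79 ± 0.21 in KO-labelled cells (adjusted p = 0.172, with the block 0.0349, limma) and 0.67 ± 0.17 in WT-labelled cells (adjusted p = 0.109, with the block 0.0223, limma). In 10 refits with the block, each without 1 library, Twist1 passed in 8 in either genotype, and Snai2 in 3 in KO-labelled cells and 5 in WT-labelled cells. Between genotypes Zeb2 passed in 7 with IFN-β and 9 untreated, and Zeb1 untreated in 1. Twist2 was at -0.85 ± 0.47 with IFN-β (adjusted p = 0.352, with the block 0.0342, limma). In untreated cells it was at -1.16 ± 0.47 (adjusted p = 0.195, with the block 0.00838, limma). Its block calls passed in 4 and 9 of these refits. The block fit had 1 of 8 higher and 2 lower in KO-labelled cells with IFN-β, beside 12.7% and 13.3% of all genes. Without IFN-β, 2 were higher and 2 lower, beside 13.5% and 13.1%.

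Of 16 tested genes known to regulate the clustered protocadherins, 1 was higher in KO-labelled cells in each treatment, beside 2.92% of all genes with IFN-β and 3.00% untreated. It was Setdb1, a histone methyltransferase known for its action at these clusters in mouse neurons. It had 2559.9 and 2599 normalised reads with IFN-β and 2563 and 2399.7 untreated in KO-labelled libraries, against 1555, 1731 and 1534 with IFN-β and 1538, 1529 and 1598 untreated in WT-labelled libraries, at 0.68 ± 0.12 with IFN-β (adjusted p = 0.0111, limma) and 0.67 ± 0.12 untreated (adjusted p = 0.0117, limma). These calls were lost without KO IFN-β 1, KO IFN-β 2 or WT IFN-β 3, and without KO untreated 1 or 2. Ctcf, the insulator protein that joins cluster promoters to their enhancers, was at -0.53 ± 0.20 with IFN-β and -0.43 ± 0.20 untreated (adjusted p = 0.170 and 0.267, with the block 0.0185 and 0.0473, limma), and its block calls passed in 7 and 2 of 10 refits without 1 library. Smchd1, a repressor of clustered protocadherins, was at -0.21 ± 0.23 and -0.13 ± 0.23 (adjusted p = 0.677 and 0.814, limma).

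Among 7 tested of the other cadherin superfamily, Pcdhac2, the C-type isoform at the end of the alpha cluster, was the 1 gene past the test in each treatment, higher in KO-labelled cells, beside 2.92% of all genes higher with IFN-β and 3.00% untreated. It had 12.7 and 28.2 normalised reads with IFN-β and 12.6 and 34.9 untreated in KO-labelled libraries, against 2.06, 2.00 and 1.93 with IFN-β and 0, 0.968 and 2.06 untreated in WT-labelled libraries. The log2 fold change was 2.74 ± 0.69 with IFN-β (adjusted p = 0.0487, limma, lost without any of 7 libraries) and 3.60 ± 0.69 untreated (adjusted p = 0.0162, limma, lost without KO untreated library 2). Untreated, 49 reads stood against 3. On pooled reads scaled by the library factors that is 23.6-fold higher, with a 95% counting interval of 7.62 to 118. Of 11 tested proteases that cleave cadherins, 1 was lower and 1 higher in each treatment. Of all genes 3.64% were lower and 2.92% higher with IFN-β, and 3.23% and 3.00% untreated. With the block 4 proteases were lower and 2 higher with IFN-β, beside 13.3% and 12.7% of all genes. Untreated, 3 were lower and 1 higher with the block, beside 13.1% and 13.5%. Mmp3 (stromelysin-1) had 0 reads in all 4 KO-labelled libraries and 96.0 to 418 normalised reads in the WT-labelled ones, which is at least 78.2-fold lower with IFN-β (adjusted p = 0.000276, limma) and at least 91.6-fold lower untreated (adjusted p = 0.000263, limma). Aph1a, a γ-secretase subunit, was at 0.97 ± 0.23 with IFN-β and 0.96 ± 0.23 untreated (adjusted p = 0.0392 and 0.0416, limma), each lost without any of 9 libraries. The median log2 fold changes (KO-labelled over WT-labelled) are given with and then without IFN-β. They were -0.36 and -0.24 for the catenins, -0.80 and -0.56 for nectins and afadin, and 0.07 and 0.07 for the transcription factors. They were -0.22 and -0.12 for the cluster regulators, -0.14 and -0.17 for the other superfamily genes and -0.35 and -0.33 for the proteases, beside -0.00013 and 0.0034 for all genes. In none of the 6 lists did a gene pass for the interaction by limma.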

How the data were processed

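RNA of 10 libraries was measured by stranded total RNA sequencing. The tools named in the submitters' processing notes are cutadapt 1.13, STAR 2.5.2a, HTSeq and DESeq2, with the mm10 build. The annotation, strand setting and filters are not given in the sources used here. The deposited values are a signal: the authors' read counts per gene divided by a factor for each library. Dividing by the smallest step of a library gave whole reads for 100% of its values within 0.001 reads. The depth was 13565815 to 16329729 reads, and 3 reads per library equal 2.73 to 3.29 normalised reads. Intervals and floors cover counting error only.

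The test was limma-trend (version 3.58.1 of limma in R 4.3.3) on log2(normalised reads + 1), with a mean for each of 4 groups over 10 libraries, after filterByExpr (edgeR 4.0.16, minimum count 10), which left 12313 genes. P-values are two-sided and Benjamini-Hochberg adjusted over all of them. The pseudocount understates changes of low genes. All 37 reported members passed the filter. Lower bounds use 3 reads per library. The script was tested on simulated data.

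Same-numbered libraries deviated together (correlations of 0.480 to 0.871 over 13 pairs that are not independent). The replicate numbers were therefore taken to pair the samples, and the pairing comes from the data, not the labels. A fit with the replicate number as a block is given wherever it changes a call of a reported member, and for some of the list genes. Alternatives were edgeR and DESeq2 1.42.0 on the recovered reads, TMM scaling, pseudocounts of 0.5 and 4, no filter, and leaving out each library. Any 2 libraries had different reads in at least 97.8% of tested genes, so none is a copy of another. Agreement within counting noise was not tested.

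Every reported member is named. Values of each library are given for the members past the test in any comparison and the 6 highest, and for others that the block called or that stand out, chosen after their values were seen. Of each related list, fixed genes and those past the test are named. The members, lists and tests were chosen with earlier results of these data known. Gene positions are from GENCODE M21, and promoters from RefSeq, which held 22 of the 92 members.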

Additional observations from a re-analysis of the deposited data

How the results depend on the processing

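The alternatives covered 126 results, which were counts of calls and genes past the threshold in the main or the block fit. None changed direction. A count has no direction and the genes were picked for passing a fit, so this says little. Genes past neither fit were not part of this check. Of 2524 recomputed values, 1916 kept their side of the threshold or moved little, 98 lost the call, 452 gained it and 58 counts moved by over 1.5 times. With the replicate block, which follows the pairing of the numbers, the members past the test were 12 untreated and 15 with IFN-β for KO-labelled against WT-labelled, 3 for IFN-β in WT-labelled cells and 1 in KO-labelled cells. The edgeR test with the same block gave 13, 15, 3 and 1. DESeq2 gave 1 for IFN-β in WT-labelled cells, where limma gave 0. The members were 41 with 10 normalised reads in at least 1 library and 35 with at least 3 libraries.

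Leaving out each library in turn gave 4 to 6 members untreated and 4 to 6 with IFN-β for KO-labelled against WT-labelled, 0 to 1 for IFN-β in WT-labelled cells (1 without WT untreated library 3), 0 in KO-labelled cells, 0 for the interaction and 7 to 13 between numbers. With the block these were 8 to 14 (11 without KO untreated library 1 or WT untreated library 2), 7 to 17, 0 to 4, 0 to 2 and 0. Pcdh7, Cdh11, Cdh10 and Pcdh10 passed between genotypes in both treatments under all 8 other settings and without each of the 10 libraries. With 2 KO-labelled libraries per group, leaving out 1 assumes that the other varies like the remaining groups. Members under about 20 normalised reads rest on few counts.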
